A study of Danio rerio with 6 samples.

Results

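The Hox genes of the zebrafish (Danio rerio) were examined in whole embryos at 22 hours post fertilization. Members were the counted genes whose symbol is hox, a cluster letter from a to d, a number and an optional final a or b. This gave 47 genes of 31484 counted, spread over 7 clusters. Each cluster is named here by its letter and copy, with its chromosome in GRCz10: hoxaa (19), hoxab (16), hoxba (3), hoxbb (12), hoxca (23), hoxcb (11) and hoxda (9). Embryos of 2 genotypes were sequenced, synpo2 wt/wt (wild type) and synpo2 -/- (homozygous mutant), in 3 biological replicates each. synpo2 encodes synaptopodin-2, which binds actin and sits at the Z-disc of muscle. The labels give no lesion, strain, number of embryos per library or treatment other than Tricaine euthanasia, which both genotypes share.

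Hox genes encode homeodomain transcription factors that give cells their position along the head-to-tail axis. Genes of paralogue groups 1 to 3, at the 3′ end of a cluster, are expressed from the hindbrain backwards. Genes of groups 4 to 8 start further back, and those of groups 9 to 13, at the 5′ end, are expressed in the posterior trunk, tailbud and fin buds. The 3′ genes switch on first and the 5′ genes last, and at this stage the tail is still growing out from the tailbud. Zebrafish carry duplicated clusters, so many genes have an a and a b copy. Groups 1 to 3, 4 to 8 and 9 to 13 are called anterior, central and posterior below.

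Library totals ranged from 32714170 to 142789686 counts, with wild type replicate 1 the deepest by far, and the smallest Hox count in any library was 51. Of the 20 genes fixed as checks of a whole-embryo sample, 18 were matched. All 18 were counted in every library, among them forebrain (foxg1a, emx2), heart (myl7) and tailbud (tbxta) genes, the lowest being col9a1a at 1.26 CPM (counts scaled to library size). The targeted gene family was checked through synpo2b, at 3.96, 3.91 and 6.09 CPM in the wild types and 1.71, 1.58 and 1.52 CPM in the mutants. Its log2 fold change was -1.53 (SE 0.27, adjusted p = 0.15 by edgeR and 0.000114 by DESeq2), without overlap, and the labels do not say which synpo2 copy carries the lesion. In these bulk libraries fewer cells of a type and less RNA per cell cannot be told apart.

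All 47 Hox genes matched by symbol passed the filter on low counts, so none of these was lost from the comparison. A symbol was available for 25752 of the 31484 counted genes, so a Hox gene without one would have been missed. Wild-type means ran from 3.68 CPM for hoxa11a to 119.3 CPM for hoxb3a. Levels of different genes were compared per length, as CPM per kb of counted exon. On that scale the highest wild-type mean was 12.2 times the lowest. The trunk gene hoxb8a led in wild type at 38.0 ± 9.23 CPM per kb (SD, n = 3). It was followed by hoxb9a at 36.4 ± 6.62, the early hindbrain gene hoxb1b at 30.7 ± 7.98, hoxb3a at 30.0 ± 4.05 and hoxc3a at 27.0 ± 4.81 CPM per kb. These 5 levels lay within each other's spread. Of the 46 pairs of neighbours in the order of all 47 genes, 0 differed by more than their summed SDs. Neighbours in a ranked order are close by construction, so that count does not show that genes further apart are alike.

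The lowest levels per length belonged mainly to the 5′-most genes. hoxa13a, hoxa13b, hoxb13a and hoxd13a, of the group that patterns the distal fin and the tail end, lay between 3.11 and 3.92 CPM per kb in wild type. The exception in group 13 was hoxc13a at 14.1 ± 3.84 CPM per kb. Anterior hoxa1a (3.69 ± 0.66 CPM per kb) was as low as the group 13 genes. Across the 47 genes the Spearman rho between paralogue group and wild-type level per kb was -0.37, a description over genes that share libraries.

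**Figure D1:**
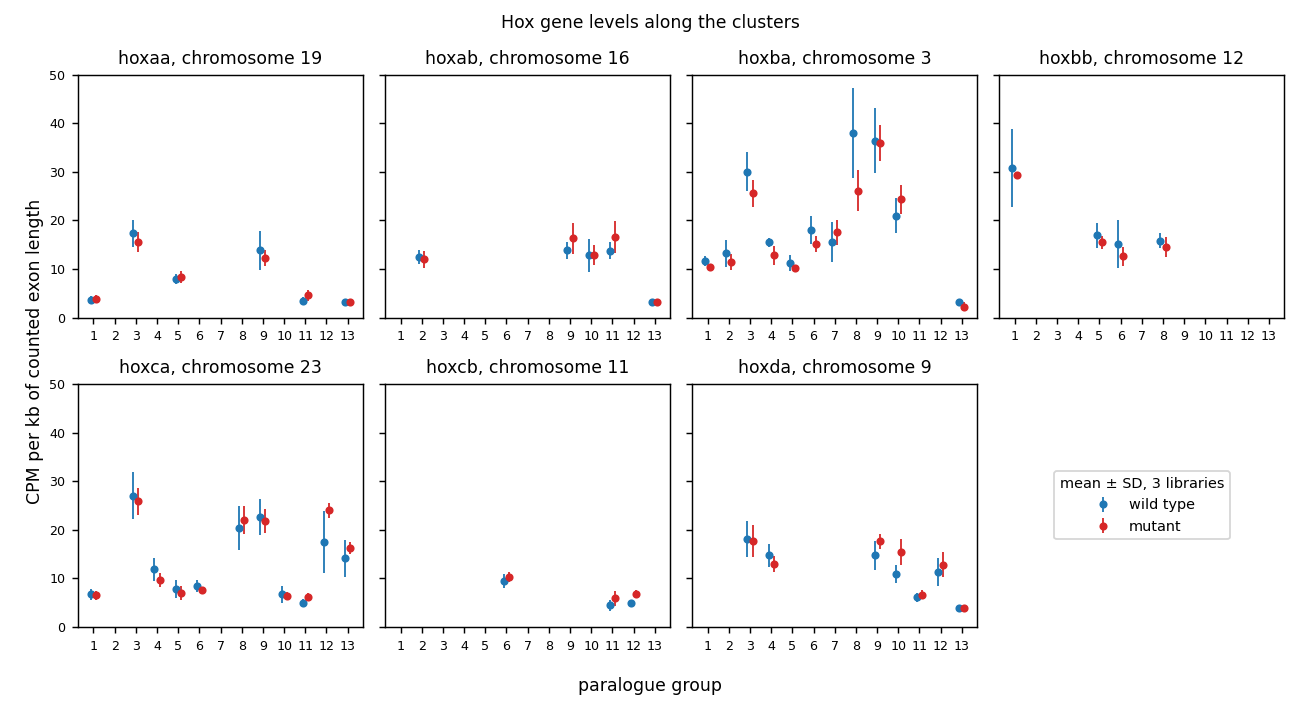
Mean level of each Hox gene in CPM per kb of counted exon (vertical axis, ± SD over 3 libraries) against its paralogue group (horizontal axis), 1 panel a cluster, in wild type (blue) and mutant (red). hoxb8a and hoxb9a of the hoxba cluster reach 38.0 and 36.4 CPM per kb in wild type. Of the 5 matched group 13 genes, 4 lie under 4 CPM per kb.

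Of 10 genes present as an a and a b copy, several had unequal copies. hoxb1b stood above hoxb1a, the gene of rhombomere 4 identity, in all 6 libraries (30.7 ± 7.98 against 11.7 ± 1.03 CPM per kb in wild type). hoxa11b was 4.07 times hoxa11a (13.7 ± 1.70 against 3.38 ± 0.80 CPM per kb), hoxb8a was 2.40 times hoxb8b (15.8 ± 1.59 CPM per kb), and hoxc12a was 3.59 times hoxc12b (17.5 ± 6.40 against 4.89 ± 0.38 CPM per kb), each in the same order in all 6 libraries. Copies of hoxa9, hoxc11 and hoxa13 changed places between libraries. The log2 difference between genotypes had the same sign in both copies for 8 of the 10 pairs. The exceptions were hoxc6 (-0.16 and 0.12 for the a and b copies) and hoxa9 (-0.17 and 0.23), each of the 4 values with an SE between 0.17 and 0.24.

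The comparison of mutant with wild type asked which genes change when synpo2 is lost. Among the 47 Hox genes 0 passed edgeR's quasi-likelihood test at an adjusted p under 0.05 (lowest adjusted p = 0.404), where 15 of 20415 genes, 0.0735%, passed. DESeq2 called 0 of the 47 (lowest adjusted p = 0.252), where it called 2.21% of all genes. limma-voom also called 0 of the 47 (lowest adjusted p = 0.377), but its share over all genes is not given here. At an unadjusted p under 0.05, 3 Hox genes passed by each of the 3 tools, where 11.2% of all genes did so by edgeR. The shares of all genes at that p by DESeq2 and limma-voom are not given here, so only the edgeR count has its background. The fitted differences were small. The largest was -0.54 on the log2 scale, 39 of 47 lay within 0.3 of 0, and the SEs ran from 0.14 to 0.33. The median over the Hox genes was -0.03, beside 0.01 over all genes tested. Hox genes together took 0.122%, 0.113% and 0.135% of all counts in the wild types (replicates in order) and 0.109%, 0.128% and 0.128% in the mutants, so the groups overlapped.

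**Figure D2:**
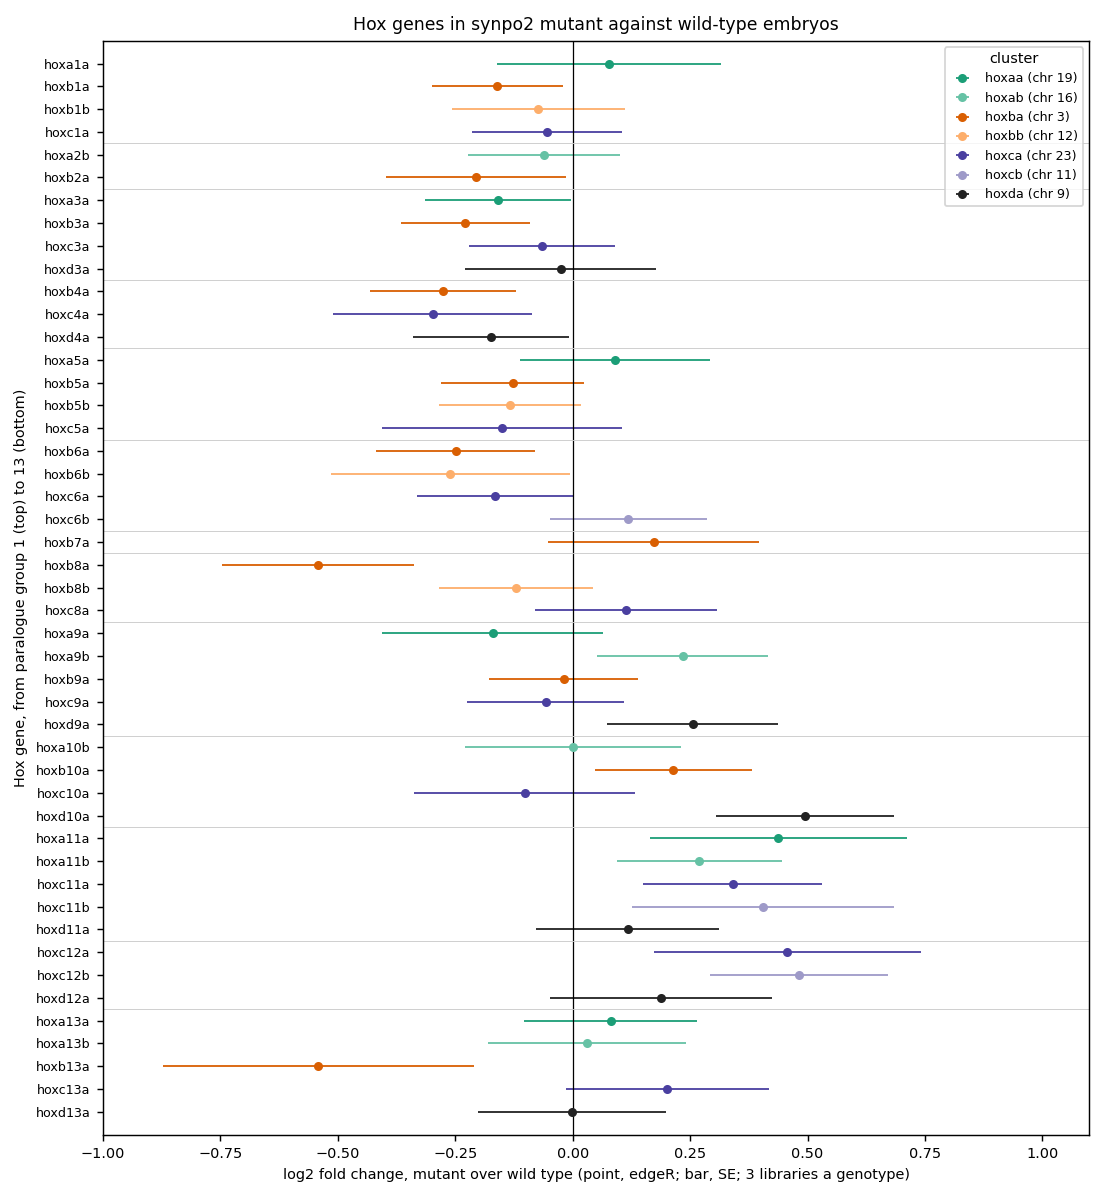
log2 fold change of mutant over wild type (horizontal axis; edgeR estimate, bar = SE) for the 47 Hox genes, ordered from paralogue group 1 at the top to 13 at the bottom and coloured by cluster. Points of groups 2 to 4 lie left of 0 and points of groups 11 and 12 right of 0, and 0 of the 47 passed at an adjusted p under 0.05.

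Since no single gene passed, the classes are described by counts and medians. Anterior genes were lower in mutants for 9 of 10 (median log2 fold change -0.07) and central genes for 11 of 15 (median -0.15). Posterior genes were higher for 16 of 22 (median 0.20), where 50.9% of all genes tested were higher. In group 11 all 5 genes and in group 12 all 3 were higher, with medians of 0.34 and 0.46. Groups 11 and 12 were singled out after the values were seen. Higher genes numbered 2 of 5 in group 9 (median -0.02), 3 of 4 in group 10 (median 0.11) and 3 of 5 in group 13 (median 0.03). With mutant replicate 2 left out the group 11 median was 0.18, still with 5 of 5 higher, and the group 13 median was -0.02. Across the 47 genes the Spearman rho between paralogue group and log2 fold change was 0.53. It stayed between 0.38 and 0.58 when any 1 library was left out. The genes share the 6 libraries, so these are descriptions with no test. The anterior lean is the least steady, since without wild type replicate 1 anterior genes were higher in mutants for 6 of 10 (median 0.01), and without mutant replicate 1 for 5 of 10. The central median was -0.05 if wild type replicate 1 was left out and -0.08 if mutant replicate 1 was. It was -0.24 when mutant replicate 3 was removed and -0.23 when wild type replicate 2 was removed. The posterior median was 0.09 without mutant replicate 2 and 0.08 without wild type replicate 2.

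The same counts were also taken as shares of each library's Hox counts. Posterior genes took 30.3%, 31.7% and 33.1% of the Hox counts in the wild types and 35.8%, 38.2% and 33.8% in the mutants. All 3 mutant libraries lay above all 3 wild-type ones, mutant replicate 3 by less than the spread within either genotype (31.7 ± 1.39% against 35.9 ± 2.20%, SD, n = 3 each). Central genes took 27.0%, 26.5% and 26.1% in the wild types and 24.2%, 23.4% and 25.3% in the mutants, also without overlap. For mutant replicate 3 that separation depends on hoxb8a, which gave 2436 of 44238 Hox counts in wild type replicate 3 and 1921 of 43852 in mutant replicate 3. With hoxb8a left out, the central share of mutant replicate 3 lies only just above that of wild type replicate 3, within counting error. The posterior share of mutant replicate 3 then still lies above that of wild type replicate 3, but by less, and also within counting error. In central share, mutant replicates 1 and 2 stay below all wild types. The shares of a library make up its whole, so a rise in 1 class lowers the others. Anterior genes took 42.7%, 41.8% and 40.7% against 40.0%, 38.4% and 40.9%, where mutant replicate 3 lay above wild type replicate 3. The 95% Wilson interval of each share was at most 1.02 percentage points wide, which covers counting error only.

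**Figure D3:**
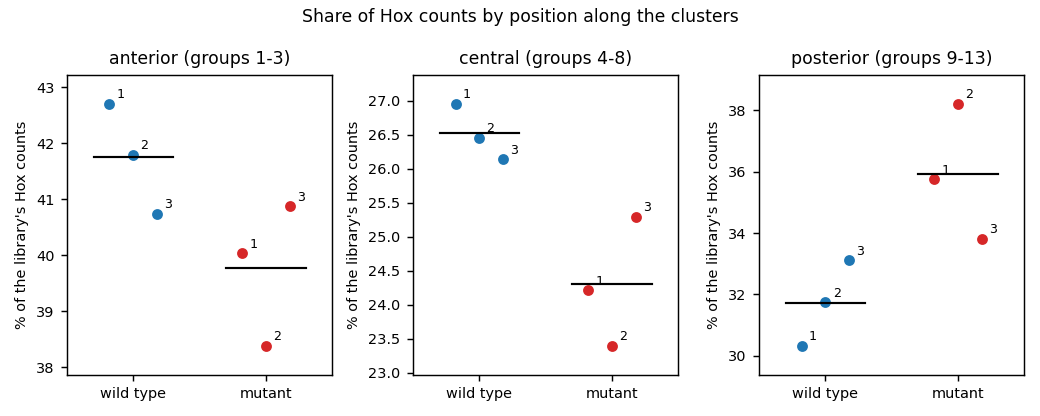
Share of a library's Hox counts (vertical axis, percent, not from 0) from anterior, central and posterior genes, in wild type (blue) and mutant (red), each point 1 library marked with its replicate number and the line the mean of 3. Posterior shares run from 30.3% to 33.1% in wild type and from 33.8% to 38.2% in mutants.

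Among the anterior genes none passed an unadjusted p of 0.05. hoxb1b, which acts early in hindbrain patterning, was at 62.8, 37.2 and 48.0 CPM in the wild types and 47.9, 46.6 and 46.4 CPM in the mutants, and the mutant values sit inside the wild-type range (log2 fold change -0.07, SE 0.19). hoxb1a was at -0.16 (SE 0.14), hoxc1a at -0.06 (SE 0.16) and hoxa1a at 0.08 (SE 0.24) on the log2 scale. The group 2 genes specify the hyoid arch and rhombomere identity. hoxb2a was at 30.0, 20.1 and 22.7 CPM in the wild types and 18.6, 20.1 and 24.5 CPM in the mutants, with overlap, and its log2 fold change was -0.21 (SE 0.19). That of hoxa2b was -0.06 (SE 0.16).

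Group 3 genes, active in the caudal hindbrain and posterior arches, had the highest mean log2 CPM of any paralogue group in every library. That measure is not scaled by length, and the counted exons of hoxa3a, hoxb3a and hoxc3a span 5135, 3977 and 3510 bases. Per length in wild type, hoxb8a (38.0 CPM per kb) and hoxb9a (36.4 CPM per kb) lay above every group 3 gene, the highest being hoxb3a (30.0 CPM per kb). In CPM too, wild-type hoxb9a (94.5 CPM) lay above hoxa3a (89.0 CPM) and hoxd3a (42.1 CPM). hoxb3a was at 131, 101.02 and 125 CPM in the wild types and 89.8, 104.5 and 111 CPM in the mutants, so that wild type replicate 2 lay among the mutants (log2 fold change -0.23, SE 0.14, adjusted p = 0.567 by edgeR). hoxa3a (-0.16, SE 0.16), hoxc3a (-0.07, SE 0.16) and hoxd3a (-0.03, SE 0.20) were nearer to 0 on the log2 scale. The counted exons of hoxd3a and hoxd4a share 94 bases and those of hoxa3a and hoxa5a 269 bases, so reads in these stretches cannot be assigned to 1 gene. In all, 11 of the 47 Hox genes overlap another counted gene, 4 of them another Hox gene. The strand setting of the counting is not known here. Whether reads from genes that overlap on opposite strands were told apart is therefore not known either.

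Central genes act in the posterior hindbrain, spinal cord and trunk mesoderm. In group 4, hoxb4a was at 19.2, 21.2 and 21.7 CPM in the wild types and 15.2, 15.9 and 20.1 CPM in the mutants. Mutant replicate 3 alone reached the wild-type range, and the log2 fold change was -0.28 (SE 0.16). hoxc4a was at -0.30 (SE 0.21) and hoxd4a at -0.17 (SE 0.17), so all 3 matched genes of group 4 were lower in mutants. In group 5, hoxb5b was highest per length at 31.8, 23.5 and 27.3 CPM in wild type against 22.7, 25.8 and 26.9 CPM in the mutants (log2 fold change -0.13, SE 0.15). hoxb5a (-0.13), hoxc5a (-0.15) and hoxa5a (0.09) were as close to 0. Of group 6, hoxb6a was at 20.7, 15.1 and 17.5 CPM in the wild types and 13.8, 14.3 and 16.8 CPM in the mutants (log2 fold change -0.25, SE 0.17), hoxb6b at -0.26, hoxc6a at -0.16 and hoxc6b at 0.12 on the log2 scale. hoxb7a, the gene of group 7 counted here, was at 30.4, 17.3 and 25.5 CPM against 23.5, 31.4 and 27.8 CPM in the mutants (log2 fold change 0.17, SE 0.22).

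By edgeR hoxb8a gave the smallest p of the 47 genes, and by DESeq2 hoxc12b did. This trunk gene of the hoxba cluster (ENSDARG00000056027, GRCz10 chromosome 3, 23557361 to 23559933, plus strand) was at 83.2, 50.5 and 73.4 CPM in the wild types and 41.6, 44.8 and 56.0 CPM in the mutants. Wild type replicates 1 and 3 stood above all mutants, but wild type replicate 2 lay below mutant replicate 3. The means were 69.1 ± 16.8 and 47.5 ± 7.54 CPM, a log2 fold change of -0.54 (SE 0.20, unadjusted p = 0.0324, adjusted p = 0.404 by edgeR). Its neighbours in the cluster, hoxb7a (0.17, SE 0.22) and hoxb9a (-0.02, SE 0.16), had smaller fitted values, as did its duplicate hoxb8b (-0.12, SE 0.16). The third gene of the group, hoxc8a, was at 0.11 (SE 0.19). The difference of hoxb8a against these genes was not tested. Leaving out 1 library moved its log2 fold change between -0.38 (without wild type replicate 1) and -0.70 (without wild type replicate 2).

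Posterior genes began with group 9 at no clear difference. hoxb9a, the most abundant posterior gene, was at 101.5, 74.9 and 107 CPM in the wild types and 82.0, 100.4 and 97.3 CPM in the mutants. The other group 9 genes were hoxa9b (0.23, SE 0.18), hoxd9a (0.26, SE 0.18), hoxc9a (-0.06, SE 0.17) and hoxa9a (-0.17, SE 0.24) on the log2 scale. In group 10, hoxb10a was at 32.9, 23.9 and 32.3 CPM in the wild types and 30.2, 38.9 and 34.3 CPM in the mutants (log2 fold change 0.21, SE 0.17), with hoxa10b at 0.00 and hoxc10a at -0.10.

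hoxd10a (ENSDARG00000057859, chromosome 9, 1966910 to 1969274, minus strand) was at 19.1, 14.6 and 20.5 CPM in the wild types and 23.7, 30.5 and 22.3 CPM in the mutants. Every mutant library lay above every wild-type one, a pattern that 3 of the 47 Hox genes and 8.45% of all genes showed. The means were 18.1 ± 3.10 and 25.5 ± 4.40 CPM and the log2 fold change 0.49 (SE 0.19, unadjusted p = 0.0341, adjusted p = 0.408 by edgeR). Without mutant replicate 2, the highest library, it was 0.35. The reverse pattern, every mutant below every wild-type library, occurred in 0 of the 47 Hox genes, against 9.63% of all genes.

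Group 11 genes pattern the caudal axis and, with group 13, the paired fins. hoxa11b was at 26.5, 22.3 and 28.6 CPM in the wild types and 27.0, 38.2 and 28.2 CPM in the mutants, where mutant replicate 2 alone was outside the wild-type range (log2 fold change 0.27, SE 0.18). hoxa11a (0.44, SE 0.27), hoxc11b (0.41, SE 0.28), hoxc11a (0.34, SE 0.19) and hoxd11a (0.12, SE 0.20) were likewise highest in mutant replicate 2. In group 12, hoxc12b (ENSDARG00000103133, chromosome 11, 2132276 to 2133537, minus strand) was at 4.46, 4.83 and 5.22 CPM in the wild types and 6.64, 7.60 and 6.002 CPM in the mutants, without overlap. Its log2 fold change was 0.48 (SE 0.19, unadjusted p = 0.0374, adjusted p = 0.414 by edgeR). hoxc12a was at 8.38, 17.1 and 17.9 CPM in the wild types and 18.6, 21.2 and 19.6 CPM in the mutants. The log2 fold change of hoxc12a, 0.46 (SE 0.28), was 0.18 without wild type replicate 1, which had the lowest value by far. hoxd12a was at 0.19 (SE 0.24).

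Group 13 genes lie last in their clusters, and their fitted values lay on both sides of 0. hoxc13a was at 12.0001, 16.4 and 20.9 CPM in the wild types and 17.3, 20.3 and 19.0 CPM in the mutants, inside the wild-type range (log2 fold change 0.20, SE 0.22). hoxa13a (0.08, SE 0.18), hoxa13b (0.03, SE 0.21) and hoxd13a (-0.0018, SE 0.20) had fitted values smaller than their SE. hoxb13a was at 3.76, 3.65 and 4.10 CPM in the wild types and 2.65, 1.55 and 3.70 CPM in the mutants, with a log2 fold change of -0.54 (SE 0.33, unadjusted p = 0.144, adjusted p = 0.573 by edgeR) that was -0.27 without mutant replicate 2 and -0.87 without mutant replicate 3. Mutant replicate 2, in which 12 of the 22 posterior genes were highest, was the library lowest in hoxb13a.

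**Figure D4:**
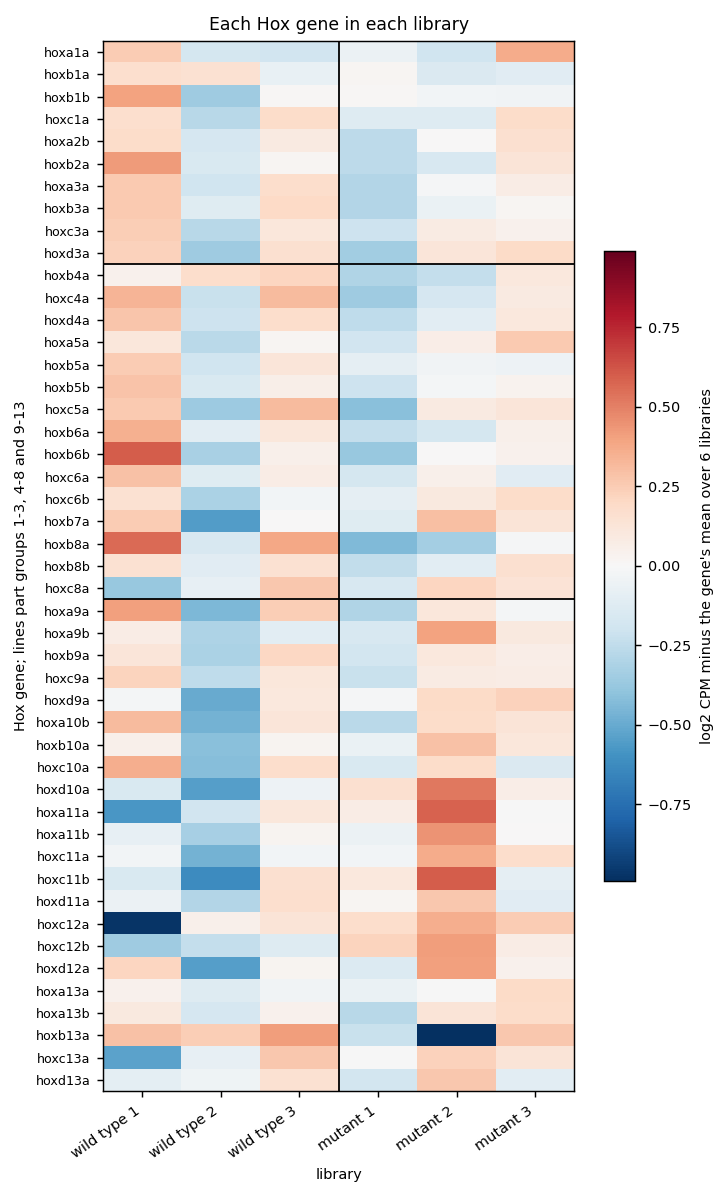
log2 CPM of each Hox gene (rows, paralogue groups 1 to 13 from top to bottom) in each library (columns), as the difference from the gene's mean over the 6 libraries (red higher, blue lower). On this TMM-scaled measure, wild type replicate 1 is highest for 20 genes, mutant replicate 2 for 12 of the 22 posterior genes, and wild type replicate 2 lowest for 23 genes.

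Single libraries carried much of this variation. Wild type replicate 1 was the highest of the 6 libraries for 20 Hox genes, 16 of them anterior or central, and the lowest for 5 (hoxc8a, hoxa11a, hoxc12a, hoxc12b and hoxc13a). Over all 20415 genes tested it was the highest for 5886 and the lowest for 5204. Wild type replicate 2 was the lowest for 23 genes and mutant replicate 1 for 16, of which 14 were anterior or central. These counts use CPM scaled by TMM, and part of them may come from that scaling. By unscaled counts, the Hox share of wild type replicate 1 was 0.122%. It was 0.135% in wild type replicate 3 and 0.128% in mutant replicates 2 and 3. The lowest share was in mutant replicate 1 (0.109%), then wild type replicate 2 (0.113%). Summed Hox CPM after scaling was highest in wild type replicate 1 (1391) and lowest in wild type replicate 2 (1026). By cluster, hoxba genes were lower in mutants for 9 of 11 (median log2 fold change -0.21) and hoxbb genes for 4 of 4 (median -0.13), while hoxcb genes were higher for 3 of 3 (median 0.41). Without wild type replicate 1 the hoxbb median was 0.0056, with 2 of 4 genes higher, and that of hoxba was -0.12. Leaving out mutant replicate 1 gave -0.06 for hoxbb and -0.13 for hoxba, and leaving out mutant replicate 3 or wild type replicate 2 gave -0.21 for hoxbb. The hoxcb median was 0.18 with mutant replicate 2 left out and 0.25 with wild type replicate 2 left out. The hoxbb genes counted are all anterior or central, and 2 of the 3 hoxcb genes belong to groups 11 and 12, so cluster and position along it cannot be told apart. The medians of hoxaa, hoxab, hoxca and hoxda were 0.08, 0.03, -0.06 and 0.12, and those of hoxaa, hoxab and hoxca changed sign when single libraries were left out.

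Genes beside the clusters were read in the same fit. Of 91 other counted genes between Hox genes or within 200 kb of a cluster, 65 were tested and 0 passed by edgeR, 4 at an unadjusted p under 0.05 (11.2% of all genes), with a median log2 fold change of -0.02. The 7 tested genes that lie between Hox genes had a median of 0.31, with 5 higher and 2 lower and 0 at an unadjusted p under 0.05. By DESeq2, which called 2.21% of all genes, ZNF438 beyond the hoxbb cluster passed (adjusted p = 0.0455). It was at 18.1, 17.5 and 18.1 CPM in the wild types and 13.5, 12.98 and 13.3 CPM in the mutants (log2 fold change -0.43). mhc1lca, a class I histocompatibility gene, was at 1.05, 0.574 and 0.965 CPM in the wild types and 0.210, 0.456 and 0.175 CPM in the mutants, without overlap (log2 fold change -1.63, SE 0.47). The others were a pair of even-skipped homeobox genes that flank 5′ ends. eve1, beside hoxb13a, was at 3.27, 3.34 and 2.92 CPM in the wild types and 4.54, 5.75 and 4.69 CPM in the mutants (log2 fold change 0.65, SE 0.21, adjusted p = 0.344 by edgeR). EVX2, beside hoxd13a, was at 4.16, 3.26 and 4.28 CPM against 1.41, 1.95 and 3.29 CPM, and lay on the other side of 0 (-0.81, SE 0.35).

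Hox proteins bind DNA with TALE homeodomain partners of the Pbx and Meis families. Of 14 such cofactor genes listed, 12 were tested and 0 passed at an adjusted p under 0.05, by edgeR or DESeq2. At an unadjusted p under 0.05, 4 of the 12 were lower in mutants and 0 higher, where 6.83% of all genes were lower, and the median log2 fold change was -0.27, or -0.17 without mutant replicate 1. meis3, a hindbrain partner of Hox proteins, was at 78.6, 68.6 and 77.4 CPM in the wild types and 47.8, 60.1 and 58.9 CPM in the mutants, without overlap (log2 fold change -0.43, SE 0.12, adjusted p = 0.322 by edgeR). meis1a was at 89.2, 81.4 and 119 CPM against 63.0, 67.2 and 75.3 CPM (-0.49, SE 0.16, and -0.32 without wild type replicate 3), also without overlap. meis1b was at 295, 233 and 273 CPM against 182, 202 and 229 CPM (-0.39, SE 0.14), so all mutants were below all wild types there too. pbx3b was at 22.4, 15.4 and 17.3 CPM against 9.14, 8.97 and 15.3 CPM, where mutant replicate 3 almost reached wild type replicate 2 (-0.72, SE 0.26). pbx4, the main Pbx gene of zebrafish hindbrain patterning and the most abundant on the list, was at 371 ± 2.55 CPM in the wild types and 341 ± 48.5 CPM in the mutants (log2 fold change -0.12, SE 0.13).

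Genes that act upstream of the Hox clusters include caudal (Cdx) factors, the retinoic acid pathway, hindbrain segment regulators and chromatin factors. Of 27 such genes listed, cdx1a and cdx1b were not matched, which left cdx4 as the only Cdx gene read. Of the 25 tested, 0 passed by edgeR and 1 at an unadjusted p under 0.05, where 11.2% of all genes did so and 4.39% were higher. The median log2 fold change was 0.08, and 0.02 with mutant replicate 2 or mutant replicate 3 left out. The gene with that p was cdx4, a caudal homeobox gene of the tailbud needed for posterior Hox expression in zebrafish. It was at 29.5, 27.6 and 32.9 CPM in the wild types and 43.3, 63.3 and 42.6 CPM in the mutants. All mutants lay above all wild types, by a log2 fold change of 0.73 (SE 0.18, unadjusted p = 0.00447, adjusted p = 0.285 by edgeR), and DESeq2 called it higher (adjusted p = 0.0437). The retinoic acid synthesis gene aldh1a2 was at 0.01 (SE 0.13) and the degrading enzyme gene cyp26a1 at 0.01 (SE 0.21) on the log2 scale. The hindbrain regulators egr2b and mafba were at 0.11 (SE 0.20) and 0.16 (SE 0.14). Related genes lay further from 0, on both sides: cyp26c1 (-0.26, SE 0.15), rarab (0.27, SE 0.15), mafbb (0.39, SE 0.27) and rargb (0.51, SE 0.49). Of the 25 genes 17 were higher and 8 lower.

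**Figure D5:**
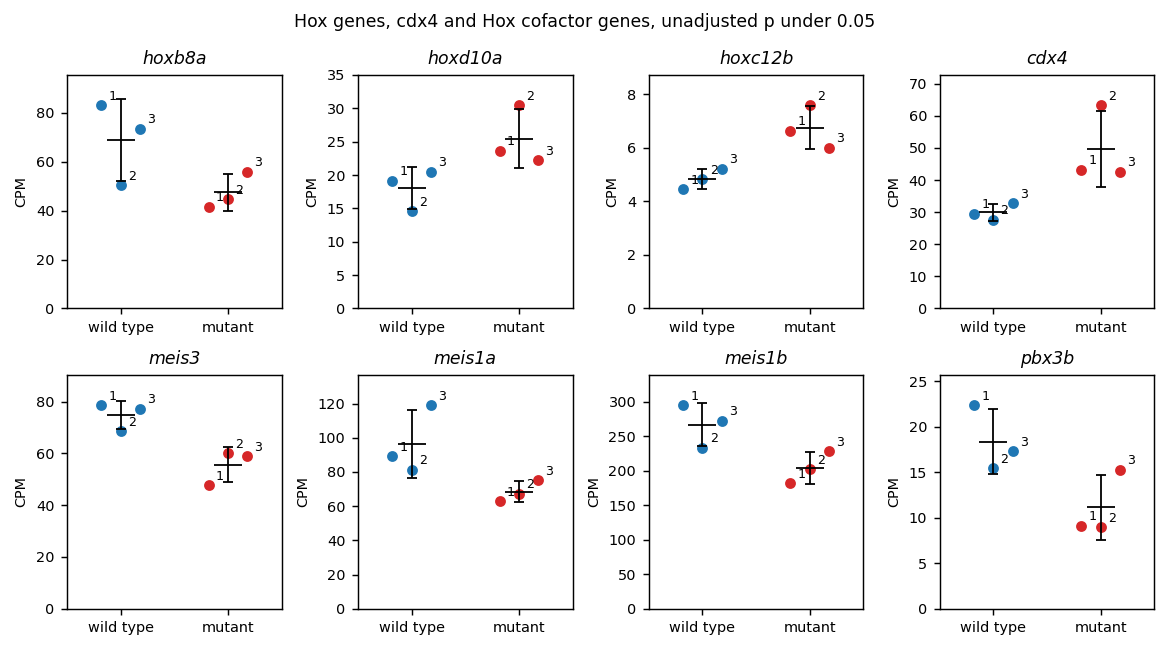
CPM (vertical axis, from 0) of hoxb8a, hoxd10a, hoxc12b, cdx4, meis3, meis1a, meis1b and pbx3b in the 3 wild-type (blue) and 3 mutant (red) libraries, marked with replicate numbers, with mean ± SD in black. cdx4 runs from 27.6 to 32.9 CPM in the wild types and from 42.6 to 63.3 CPM in the mutants, and in the hoxb8a panel the groups overlap.

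Lists for the tailbud, fast muscle and hindbrain were read beside these values. Of 22 tailbud genes listed, 19 were tested. At an unadjusted p under 0.05 by edgeR, 8 were higher and 1 lower (4.39% and 6.83% of all genes). Among the 8 was eve1, and the 1 lower gene was EVX2, both also read above as neighbours of the clusters. At an adjusted p under 0.05, 0 passed by edgeR and 1 by DESeq2, which called 2.21% of all genes. The median log2 fold change was 0.49, or 0.16 without mutant replicate 2. Mean log2 CPM of this list was 2.68, 2.91 and 3.02 in the wild types and 3.14, 3.55 and 3.09 in the mutants. Mutant replicate 2, the highest in tailbud genes and in cdx4, was also the library with the largest posterior Hox share. Of 14 fast muscle genes listed 10 were tested, and all 10 were lower, where 50.9% of all genes tested were higher. At an unadjusted p under 0.05 by edgeR all 10 were lower (6.83% of all genes). In 7 of them every mutant library lay below every wild-type one (9.63% of all genes). Their median log2 fold change was -1.13. At an adjusted p under 0.05, 0 passed by edgeR and 5 by DESeq2 (2.21% of all genes). Their mean log2 CPM was 8.75, 8.07 and 8.80 in the wild types and 6.65, 6.74 and 7.85 in the mutants. Hindbrain genes, 11 tested, had a median of 0.00, with 0 at an unadjusted p under 0.05. What part the tailbud and muscle differences have in the Hox values was not tested.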

How the data were processed

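Per the labels, total RNA of whole embryos was sequenced. The submitters' processing notes list the build GRCz10 with STAR 2.5.2b and Trimmomatic 0.36. The authors deposited whole-number counts per Ensembl gene with exon coordinates and length, per the file headers. Which program counted the reads, and with what strand setting, is unknown: not given in the sources used here. Of the Hox names, 15 came from the name table, and 32 human-style symbols were given their a or b by the chromosome of the RefSeq symbol (GRCz12tu). Hox gene sequences are not shown. edgeR 4.0.16 (R 4.3.3) was used with filterByExpr, TMM scaling and the robust quasi-likelihood F test, two-sided, without covariates, Benjamini-Hochberg adjusted over 20415 genes. CPM are scaled by TMM, and mean log2 CPM used a prior count of 2. Alternatives used DESeq2 1.42.0 and limma 3.58.1 (voom). Code was tested on simulated data. The Hox genes, lists and tests were chosen with earlier results of these data known. Values in every library are given for Hox genes, their cofactors, upstream regulators and neighbours with an unadjusted p under 0.05, and for the Hox gene highest per length in each paralogue group. hoxb13a and pbx4 fell outside this rule and were chosen after their values were seen. The labels do not say whether replicates came from separate clutches, so p-values may measure only the spread between these libraries. No 2 libraries agreed within sampling noise.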

Additional observations from a re-analysis of the deposited data

How the results depend on the processing

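The count of 0 Hox genes passing held under every alternative run: 3 other scalings, 2 other filters, DESeq2, limma-voom, non-robust dispersion, the replicate block, each library left out, wild type replicate 1 thinned to the depth of the others, and a threshold of 0.01. The Hox, anterior, central and posterior medians moved by less than the spread between replicates in all of them. That is a loose bound, since leaving out 1 of 3 libraries moves a genotype's mean by less than the SD between them. The replicate spread (SD 0.17, 0.19, 0.20 and 0.18) was larger than the Hox, anterior and central medians. A median could therefore change sign within it. With 1 library left out the medians ran from -0.14 to 0.08, -0.17 to 0.01, -0.24 to -0.05 and 0.08 to 0.29. Of the 47 genes, 30 kept their direction in all 16 alternatives, 16 higher and 14 lower in mutants. hoxb9a turned to 0.010 with total-count scaling, and with single libraries left out it ran from -0.14 to 0.081. hoxb1b turned to 0.14 without wild type replicate 1 and ran from -0.21 to 0.14. The count over all genes, 15, was 44 with no filter, 8 with the stricter filter (at least 1 CPM in 3 libraries), 450 with DESeq2, 9 with thinning and 3 at a threshold of 0.01. It ran from 0 to 16 with 1 library left out: 0 without mutant replicate 2, 2 without mutant replicate 1 or wild type replicate 3, and 8 without mutant replicate 3. The cause was not tested. With the replicate block it was 0, and 1 Hox gene had an unadjusted p under 0.05. The share of all genes at that p in the block fit is not given here, so the 1 gene has no background. No pairing of the libraries by number was seen: same-numbered deviations correlated at -0.23, -0.10 and 0.18, and not every library correlated best with its own number. Deviations from means of 3 libraries cannot show whether clutches or batches were shared. Ranking by CPM alone in place of CPM per kb moved the rho between paralogue group and level from -0.37 to -0.52.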
